A study of Mus musculus with 16 samples.

Results

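The interferon response genes are a set of 34 named genes that interferons induce, picked by name from knowledge of the pathway. The list was chosen with earlier results of these data known. Of the 34, 32 had a probe whose accession matched the gene in RefSeq and all 32 passed the filter on dim probes, out of 25790 features tested (15247 with a RefSeq gene name). Mx1 and Mx2 were not matched and are not analysed here. The 16 liver RNA samples came from male ApoE knockout mice (ApoE KO, lacking apolipoprotein E) with a stated age of 8 weeks, all on a high-fat diet, with livers taken after 8 weeks. Of these samples, 8 were from mice given ctrl-inh and 8 from mice given miR-185-inh, a lentivirus that encodes an antisense RNA against the microRNA miR-185. What ctrl-inh consists of and which liver cells took up the virus are not given in the sources used here. The series asks about bile acid metabolism, so interferon genes lie outside its stated question.

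Each liver had 1 single-colour Agilent array. Values are log2 levels relative to the 75th percentile of the same array, so 1 unit is a 2-fold step and levels of different genes cannot be compared. The treatments were hybridised and scanned on separate slides, so an effect of slide or scan and one of treatment cannot be told apart in the group comparisons. Both slides carried 2 rows with 4 arrays in each. Row 1 held ctrl-inh mice 1, 2, 3 and 4 and miR-185-inh mice 1, 3, 6 and 7, and row 2 held ctrl-inh mice 8, 9, 11 and 12 and miR-185-inh mice 8, 9, 10 and 12. Row follows mouse number, so position and mouse order cannot be told apart either. The comparison by row was chosen with earlier results of these data known. The labels number the livers without stating that each is a separate animal, and p-values therefore reflect only the spread among these samples, part of which may be technical. Any 2 arrays correlated with r between 0.984 and 0.996, and all 8 hepatocyte markers were well above background on all 16 arrays. The row 1 ctrl-inh arrays had more spots well above background (68.6% to 74.8%) than the others (58.7% to 67.1%). The number of arrays limits the precision.

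Interferons are secreted proteins that cells release when sensors such as RIG-I (Ddx58) and MDA5 (Ifih1) meet foreign nucleic acid. Type I interferons act through a receptor made of Ifnar1 and Ifnar2, and a complex that includes Stat2 and Irf9 then binds a short DNA motif, the interferon-stimulated response element (ISRE), near its target genes. Interferon gamma, made mainly by T and NK cells, acts at GAS motifs and induces guanylate-binding proteins, the chemokines Cxcl9 and Cxcl10 and the antigen processing machinery. In the liver, hepatocytes, Kupffer cells and sinusoidal endothelium all respond to interferons.

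The ISRE core, searched as GAAA followed by any 2 bases and GAAA again on either strand, was found in the promoter window (250 bases before to 50 bases after the start, RefSeq, GRCm38.p6) of 13 of the 27 members that had a window, or 48.1%. The same core was present in 3.99% of all 27025 genes with a window. The GAS letters, TTC and GAA with any 3 bases between them, were found for 6 of the 27 (22.2%), against 9.55% of all genes. The windows below show the core in capitals for 4 members called in a comparison between sets of arrays (Gbp2, Gbp3, Oas1a and Oas3) and for 4 classical targets. Ifit2, also called in such a comparison, had the GAS letters but no ISRE core in its window. Each is given 5′ to 3′ on the strand of its gene, where a pair of TTTC runs is the same core on the opposite strand. A match of letters is a description and not a measured binding site.
Gbp2 (chr3:142620594-142620623, plus strand): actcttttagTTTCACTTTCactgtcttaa
Gbp3 (chr3:142559989-142560018, plus strand): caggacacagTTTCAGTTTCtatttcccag
Oas1a (chr5:120907526-120907555, minus strand): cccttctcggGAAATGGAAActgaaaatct
Oas3 (chr5:120777715-120777744, minus strand): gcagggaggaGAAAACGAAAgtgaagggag
Isg15 (chr4:156200871-156200900, minus strand): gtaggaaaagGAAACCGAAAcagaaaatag
Ifit1 (chr19:34640775-34640804, plus strand): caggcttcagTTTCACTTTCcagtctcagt
Ifit3 (chr19:34583397-34583426, plus strand): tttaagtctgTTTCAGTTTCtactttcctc
Cxcl10 (chr5:92349083-92349112, minus strand): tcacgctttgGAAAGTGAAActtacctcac
The first base of the core lay 59 bases before the start of Gbp2, 45 before Gbp3, 20 before Oas1a, 75 before Oas3 and 213 before Cxcl10. Among the genes shown, Gbp3, Oas1a and Isg15 hold further cores that overlap the one in capitals, which in Isg15 begins 72 bases before the start. Only one core is capitalised in each window.

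Over all 16 livers no interferon response gene passed the test between the groups, while the differences within the slide rows had opposite signs. In row 1 most members were lower in miR-185-inh than in ctrl-inh livers, and in row 2 most were higher. Gbp2, Gbp3 and Oas1a passed the test as higher in row 2. None of them did with the row 2 arrays fitted alone, and a second Oas1a probe did not repeat the rise. The difference between the rows passed the test for Gbp3 and, on measured values that lie partly at background, for Oas3. With normexp background correction neither passed, and with the filter on all 16 arrays Gbp3 alone did. In bulk liver, fewer cells of a type and less RNA per cell cannot be told apart.

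For the whole groups, 0 of 32 members passed an adjusted p under 0.05 (limma, Benjamini-Hochberg over all features), where 4.71% of all features did (1.24% higher and 3.47% lower). At an unadjusted p under 0.05 there was 1, Irf1, where 5220 of the 25790 features were. Of the 32, 13 were higher and 19 lower in miR-185-inh, with a median difference of -0.020 against -0.033 over all features. In row 1, 0 of 32 passed (0.00775% of all features), 3 were higher and 29 lower, and the median was -0.25 against 0.0070 over all features. The unadjusted p was under 0.05 for 11 members and for 4519 of the 25790 features, and 6 members had all miR-185-inh arrays below all ctrl-inh arrays, as 6.46% of all features had (5.09% had the reverse). In row 2, 3 passed, or 9.38% against 5.78% of all features (1.72% higher and 4.06% lower), all of them higher. There 27 were higher and 5 lower, and the median was 0.22 against -0.070. All miR-185-inh arrays lay above all ctrl-inh arrays for 5 members, as for 3.96% of all features (10% had the reverse). The difference between the rows, tested as an interaction, passed for 2 members, 6.25% against 0.372% of all features (0.349% above 0 and 0.0233% below). Of these 2, Oas3 passed the filter on dim probes mainly through the sets where it is high. With the filter on all 16 arrays, which removes Oas3, 1 member passed, and 115 of 22676 features. The interaction lay above 0 for 32 of 32 members, with a median of 0.40 against -0.10 over all features. In all, 24 of 32 members (75%) were lower in row 1 and higher in row 2, as were 15.6% of all features. None of the 32 went the other way, 5 were lower in both rows and 3 were higher in both.

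**Figure D1:**
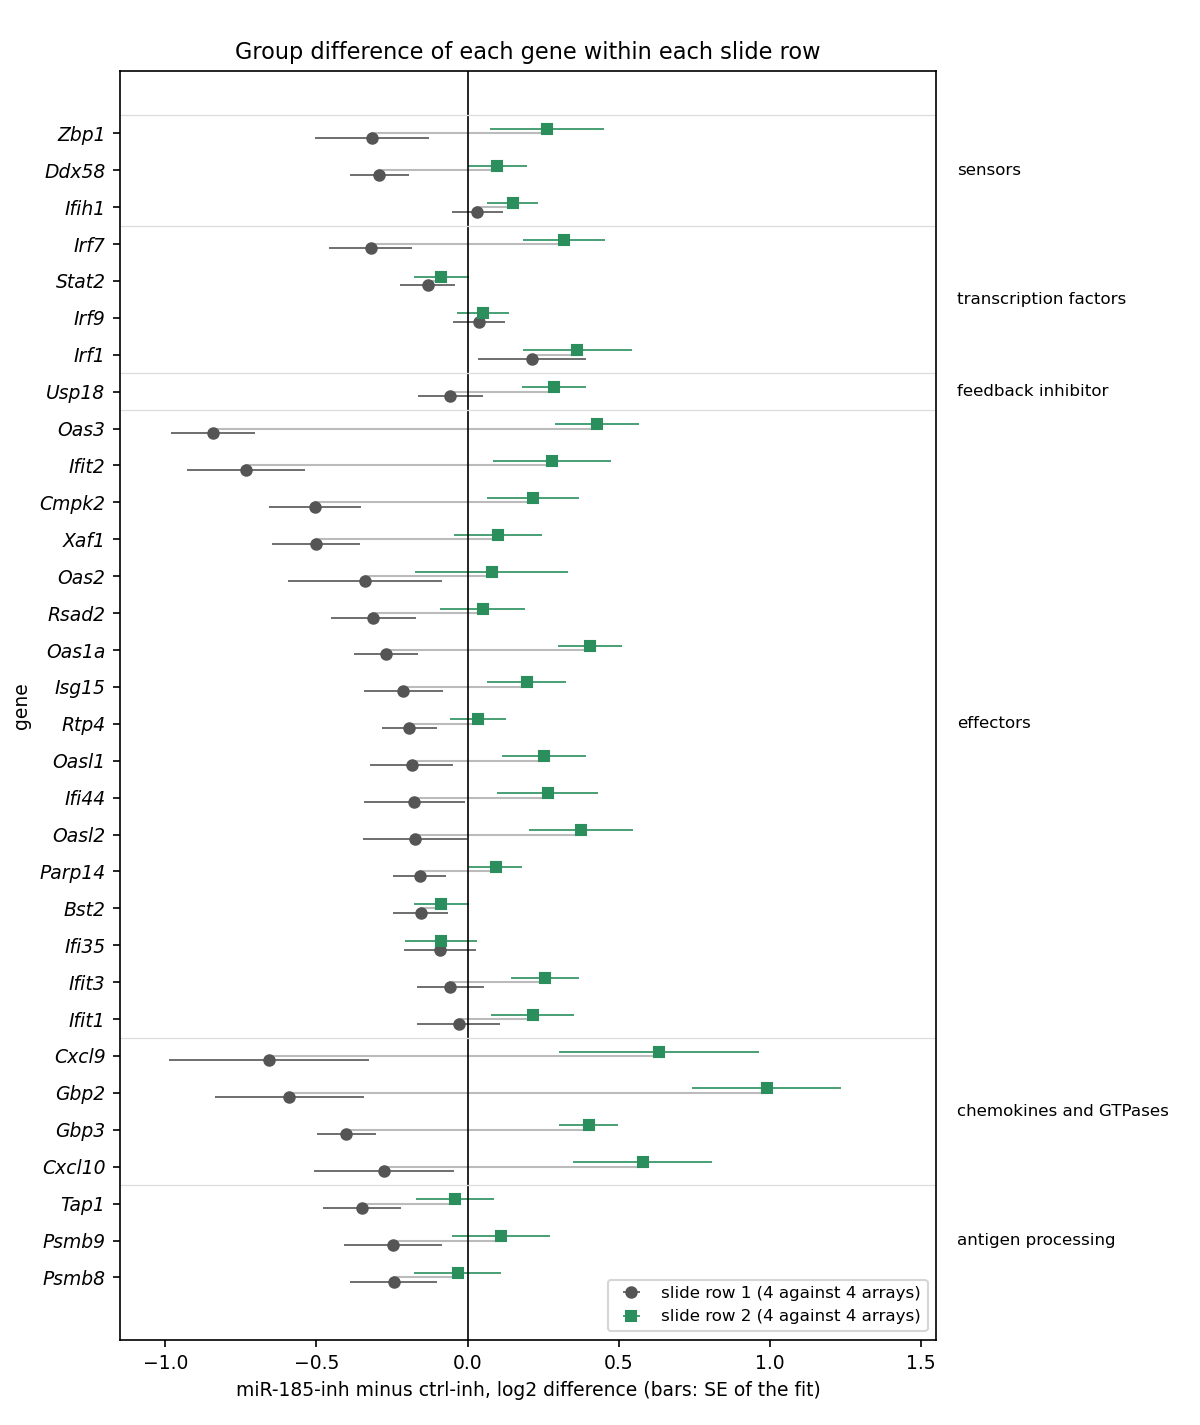
Difference between miR-185-inh and ctrl-inh (log2, horizontal axis) for each of the 32 genes, by role, in slide row 1 (circles) and slide row 2 (squares), 4 against 4 arrays each, with bars of 1 SE of the fit. In row 1, 29 genes lie left of 0, and in row 2, 27 lie right of it.

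The sensors were not called in any comparison. Ddx58 had row 1 values of 2.32, 2.09, 2.46 and 2.11 in ctrl-inh and 2.03, 1.85, 1.94 and 1.99 in miR-185-inh livers, so the arrays did not overlap. The difference was -0.29 (SE 0.098, limma adjusted p = 0.1495, exact permutation p = 0.0286, the smallest that 4 against 4 can give). In row 2 Ddx58 differed by 0.099 (adjusted p = 0.572). Zbp1, a sensor of Z-form nucleic acid, differed by -0.32 in row 1 and 0.26 in row 2. Ifih1 was higher in both rows, by 0.032 and 0.15, and a second Ifih1 probe gave -0.065 and -0.061 with a correlation of -0.013 to the first.

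Among the transcription factors, Irf7, which amplifies interferon production, followed the row pattern, while Stat2, Irf9 and Irf1 did not. Irf7 in row 1 was 0.51, 0.81, 0.78 and 0.70 in ctrl-inh and 0.39, 0.36, 0.49 and 0.27 in miR-185-inh livers, with no overlap. In row 2 it was 0.13, -0.12, 0.40 and 0.51 against 0.68, 0.54, 0.73 and 0.24, and the arrays overlapped. The Irf7 differences were -0.32 (SE 0.14, limma adjusted p = 0.240) and 0.32 (SE 0.14, adjusted p = 0.165), and the interaction of 0.64 had an adjusted p of 0.133. Because the rows offset each other, its whole-group means were 0.46 ± 0.33 and 0.46 ± 0.18 (SD, n = 8 each).

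Irf1, which mediates responses to interferon gamma, had the lowest p of the members in the whole-group comparison. Its level ran from 0.35 to 1.28 (median 0.63) in ctrl-inh and from 0.66 to 1.42 (median 0.90) in miR-185-inh livers. The highest ctrl-inh value was that of mouse 8, and the ranges overlapped. The difference was 0.29 (SE 0.13, limma adjusted p = 0.229, exact permutation p = 0.0601), with 0.21 in row 1 and 0.36 in row 2. Stat2 differed by -0.13 and -0.087 in the rows, and Irf9, its partner in the type I complex, by 0.039 and 0.050. For these 3 factors the interaction was between 0.011 (Irf9) and 0.15 (Irf1).

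Usp18, which strips Isg15 from proteins and damps the type I receptor, differed by -0.057 in row 1 and by 0.29 in row 2 (SE 0.11, limma adjusted p = 0.119). In row 2 its ctrl-inh livers ran from 1.51 to 1.67 and its miR-185-inh livers from 1.79 to 2.02, without overlap.

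The 17 effectors were all lower in row 1, and 15 of them were higher in row 2. Oas1a, an oligoadenylate synthetase that signals viral RNA to RNase L, gave 1.41, 1.39, 1.65 and 1.73 in the ctrl-inh and 1.77, 2.14, 1.98 and 1.91 in the miR-185-inh livers of row 2. All miR-185-inh arrays lay above all ctrl-inh arrays. Oas1a thus rose 1.33-fold in row 2, by 0.41 (SE 0.11, limma adjusted p = 0.0393, exact permutation p = 0.0286). In row 1 it was 1.78, 1.72, 1.76 and 1.82 against 1.31, 1.5, 1.72 and 1.46, a difference of -0.27 (adjusted p = 0.207), and the interaction of 0.68 had an adjusted p of 0.0613. A second Oas1a probe gave -0.54 in row 1 and 0.0044 in row 2, and with the mean of the probes the row 2 difference was 0.21 (adjusted p = 0.248). Oas1a also has near-identical neighbours such as Oas1g, which its probes may not separate.

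Oas3, of the same enzyme family, was dim. It was well above background on 9 of 16 arrays, namely 4 of 4 in row 1 ctrl-inh, 2 of 4 in row 1 miR-185-inh, 0 of 4 in row 2 ctrl-inh and 3 of 4 in row 2 miR-185-inh. Row 1 values were -4.66, -4.73, -4.97 and -4.64 in ctrl-inh and -5.52, -5.87, -5.71 and -5.27 in miR-185-inh livers, which did not overlap (difference -0.84, SE 0.14, limma adjusted p = 0.0520). Row 2 values were -5.46, -5.42, -5.22 and -5.43 against -4.78, -4.97, -4.76 and -5.30. The row 2 ctrl-inh level is only a bound, set at the lowest signals called above background. The mean row 2 miR-185-inh level was 1.16-fold above that bound. Since only 3 of its 4 arrays were above background, this is not a least fold. On the measured values the row 2 difference had a limma adjusted p of 0.0783. On the measured values the interaction was 1.27 (SE 0.20, limma adjusted p = 0.0244), but its size is not settled. The row 2 ctrl-inh set was at background. The mean row 1 miR-185-inh level (-5.59, with 2 of 4 arrays above background) lay below the row 2 ctrl-inh bound (-5.17). The size of the row 1 difference is therefore not settled either, and it ran from -0.91 to -0.25 under the alternatives. Oas3 also passed the filter mainly through the sets where it is high. With normexp background correction in place of the scanner's, the interaction was 0.45 with an adjusted p of 0.117, so the Oas3 call depends on how dim signal is treated.

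Ifit2, whose product binds foreign RNA, gave -1.51, -1.63, -1.78 and -1.51 in row 1 ctrl-inh livers against -2.0, -1.88, -2.88 and -2.58 in row 1 miR-185-inh livers, with no overlap. In row 2 the values were -2.59, -2.89, -2.68 and -2.52 against -2.24, -2.07, -2.68 and -2.57. The 4 ctrl-inh livers of row 1 were thus above the other 12 livers. The row 1 difference was -0.73 (SE 0.19, limma adjusted p = 0.0876) and the row 2 difference 0.28 (adjusted p = 0.398). Its relatives differed less in row 1: Ifit1 differed by -0.030 and 0.22 and Ifit3 by -0.057 and 0.26.

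Cmpk2, a mitochondrial nucleotide kinase, and Xaf1, a pro-apoptotic factor, showed their larger difference in row 1. Cmpk2 was 0.91, 0.68, 0.85 and 0.81 in row 1 ctrl-inh and 0.46, 0.16, -0.097 and 0.69 in row 1 miR-185-inh livers, a difference of -0.51 (SE 0.15, limma adjusted p = 0.119). Xaf1 was 1.52, 1.15, 1.61 and 1.37 against 0.86, 0.57, 1.05 and 1.17, a difference of -0.50 (SE 0.15, adjusted p = 0.113). For both genes the row 1 arrays overlapped, and the row 2 differences were 0.22 and 0.10. Isg15, the ubiquitin-like modifier, differed by -0.21 in row 1 (adjusted p = 0.422) and 0.20 in row 2 (adjusted p = 0.376). The other effectors (Oas2, Oasl1, Oasl2, Rsad2, Bst2, Ifi44, Ifi35, Rtp4 and Parp14) differed by -0.34 to -0.091 in row 1 and by -0.088 to 0.37 in row 2. Bst2 and Ifi35 were lower in both rows.

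The guanylate-binding proteins, GTPases that attack membranes of intracellular microbes, carried the clearest row 2 differences. Gbp2 in row 2 was -1.12, -1.16, -1.48 and -0.99 in ctrl-inh and -0.29, 0.070, 0.40 and -0.97 in miR-185-inh livers, which did not overlap, although mouse 12 was close to the ctrl-inh range. It rose 1.99-fold, by 0.99 (SE 0.25, limma adjusted p = 0.0339, exact permutation p = 0.0286). In row 1 Gbp2 was 0.40, 0.10, -0.15 and -0.18 against -0.25, -0.32, -0.98 and -0.65, again without overlap but in the other direction, by -0.59 (SE 0.25, adjusted p = 0.233). Its interaction was 1.58 (SE 0.35, adjusted p = 0.0613).

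Gbp3 in row 2 was 0.61, 0.58, 0.77 and 0.73 in ctrl-inh and 0.97, 1.18, 1.21 and 0.92 in miR-185-inh livers, and in row 1 it was 1.41, 1.09, 1.16 and 1.14 against 0.74, 0.84, 0.96 and 0.66. The arrays did not overlap in either row. Gbp3 rose 1.32-fold in row 2, by 0.40 (SE 0.098, limma adjusted p = 0.0314), and differed by -0.40 in row 1 (SE 0.098, adjusted p = 0.0749), so its whole-group difference was 0.00030. The interaction of 0.80 (SE 0.14) passed the test with an adjusted p of 0.0325. With normexp that adjusted p was 0.0639.

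Cxcl9 and Cxcl10, chemokines that draw T cells, had the same signs, and neither was called in either row. Cxcl9 in row 1 was 2.37, 2.24, 1.64 and 1.66 in ctrl-inh and 1.60, 1.71, 0.78 and 1.19 in miR-185-inh livers. In row 2 it was 1.11, 0.69, 0.88 and 1.09 against 1.56, 1.17, 2.75 and 0.82, where miR-185-inh mouse 10 stood far above the rest. The Cxcl9 differences were -0.66 (SE 0.33, limma adjusted p = 0.320) and 0.63 (SE 0.33, adjusted p = 0.258), and without mouse 10 the row 2 difference was 0.24. Cxcl10 in row 2 was 0.16, 0.0047, 0.021 and -0.45 against 0.70, 0.23, 1.08 and 0.040, a difference of 0.58 (SE 0.23, adjusted p = 0.141), and in row 1 it differed by -0.28 (adjusted p = 0.573).

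The antigen processing genes, Psmb8 and Psmb9 of the immunoproteasome and the peptide transporter Tap1, differed by -0.24, -0.25 and -0.35 in row 1 and by -0.032, 0.11 and -0.040 in row 2. None was called, and the lowest adjusted p among them was 0.185, for Tap1 in row 1.

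**Figure D2:**
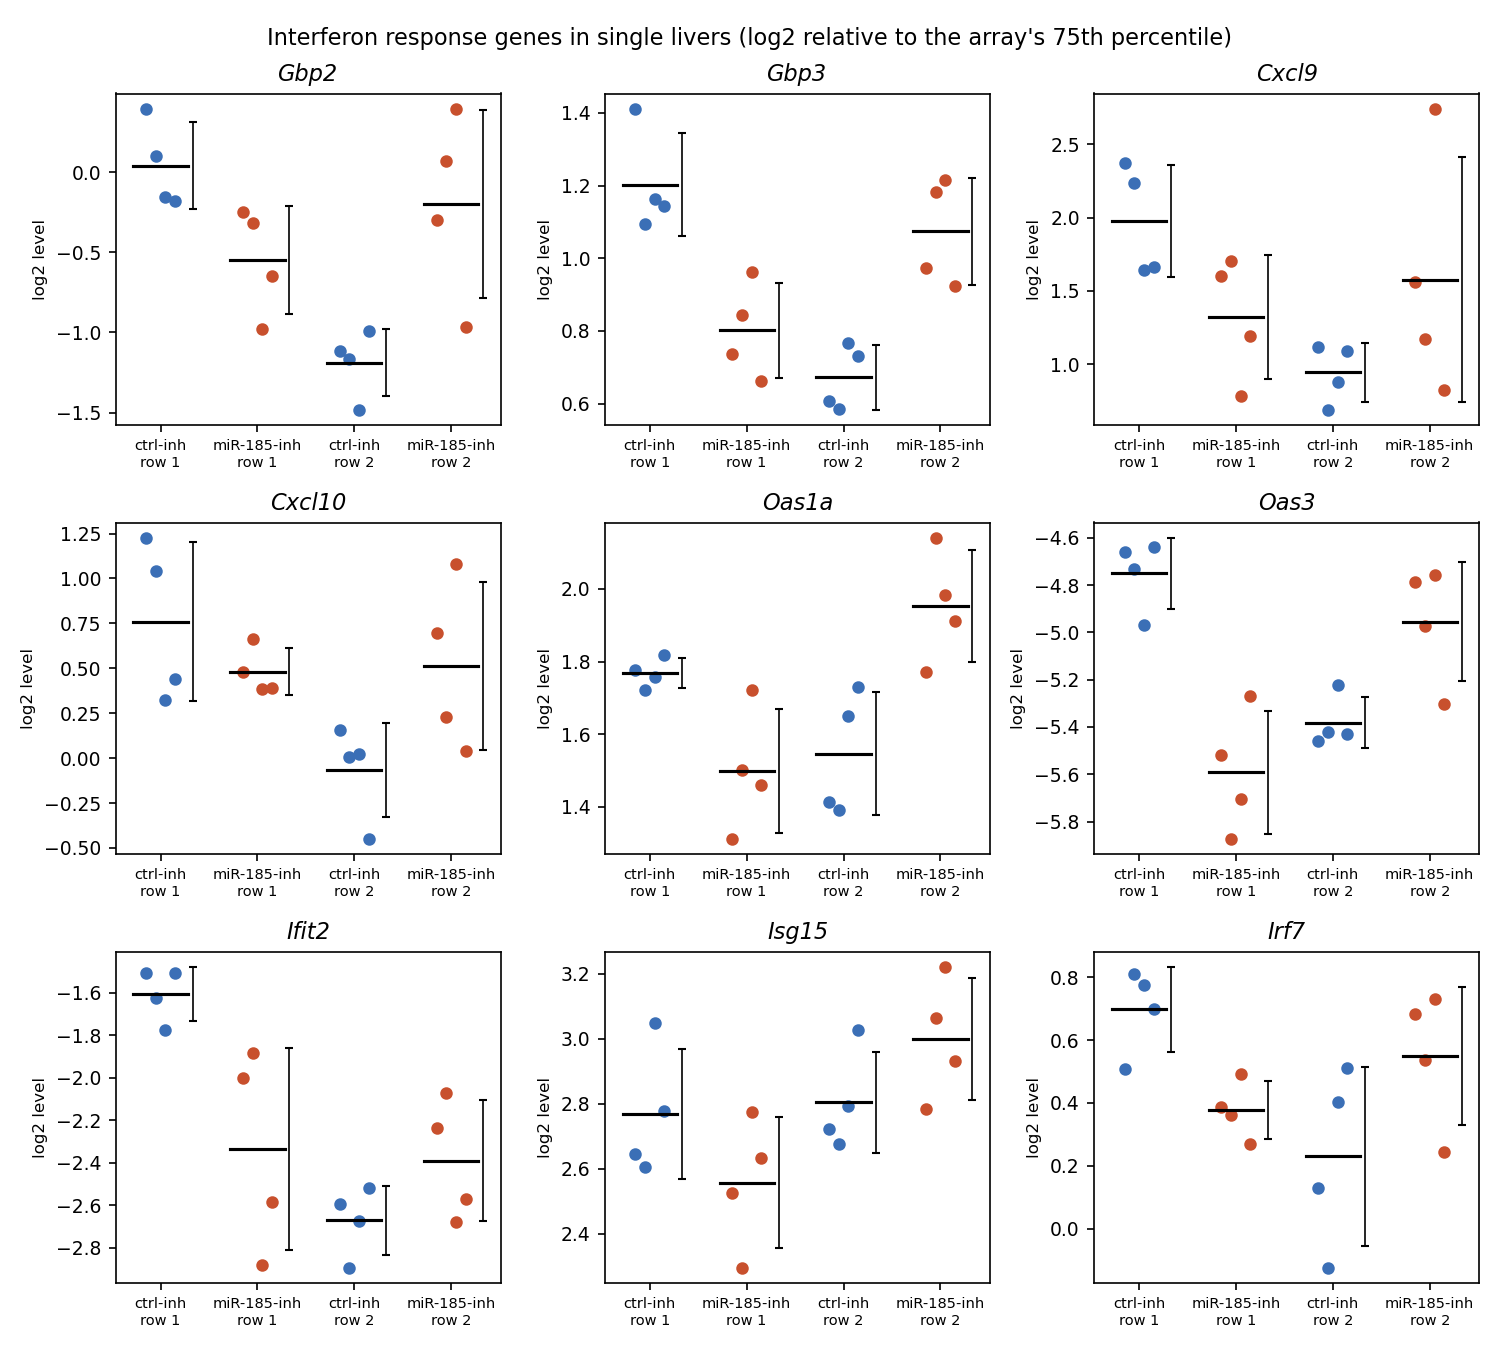
Log2 level (vertical axis, relative to the array's 75th percentile) of 9 interferon response genes in each liver, by treatment and slide row (4 arrays each), with the mean as a horizontal line and the SD as a bar beside it. Gbp3 shows the row 1 ctrl-inh livers above the row 1 miR-185-inh livers and the row 2 ctrl-inh livers below the row 2 miR-185-inh livers.

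The calls depended on single livers, over all features as well as among the members. With any one of ctrl-inh mice 8, 9 or 11 or miR-185-inh mice 9 or 10 left out, 0 members passed in row 2. In these fits 450 to 1120 features passed, against 1491 with all livers. Without ctrl-inh mouse 12 only Oas1a passed in row 2 (605 features). The interaction had 0 calls without any one of ctrl-inh mice 1, 2, 4 or 11 or miR-185-inh mice 6 or 9 (5 to 12 features, against 96). It had 1 call (Oas3) without ctrl-inh mice 8 or 9 or miR-185-inh mice 3 or 10 (15 to 55 features). It had 4 calls without miR-185-inh mouse 12 (449 features). In row 1 Oas3 passed when any one of ctrl-inh mice 3 or 8 or miR-185-inh mice 1, 3, 7, 10 or 12 was left out. There 26 to 171 features passed, against 2 with all livers. With the 8 row 2 arrays fitted alone, 0 members passed in row 2, with lowest adjusted p = 0.0778.

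The same values compared within a treatment show which livers stood apart. In ctrl-inh livers 4 of 32 members (12.5%, against 3.24% of all features, 1.63% lower) were called lower in row 2 than in row 1, and none was called higher. With the filter on all 16 arrays, which removes Oas3, 3 members were called, and 941 of 22676 features. Gbp2 fell by 1.23 on the log2 scale (SE 0.25, limma adjusted p = 0.0189), Ifit2 fell by 1.07 (SE 0.19, adjusted p = 0.0144) and Gbp3 fell by 0.53 (SE 0.098, adjusted p = 0.0148). Oas3 fell too (adjusted p = 0.0281), its mean row 1 level being 1.33-fold above the bound for row 2 on the scanner's background-corrected values. With normexp its difference was -0.061 (adjusted p = 0.693), so no least fold is given. In all, 25 members were lower and 7 higher, with a median of -0.085 against 0.089 over all features. For 7 members the arrays of the 2 rows did not overlap, all lower in row 2, as for 5.28% of all features (13.3% had the reverse). These 7 were Ifit2, Gbp2, Gbp3, Oas3, Cxcl9, Cxcl10 and Usp18. With all livers 836 features were called. Without ctrl-inh mouse 1, 0 members were called (129 features), and without mouse 2 or mouse 11 there were 2, Gbp3 and Ifit2 (268 and 147 features). Without miR-185-inh mouse 10, which enters the shared spread, there were 6 (978 features).

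In miR-185-inh livers the order was the other way. Of 32 members 31 were higher in row 2 than in row 1, with a median of 0.28 against 0.0054 over all features. None passed the test, and 0% of all features did. The unadjusted p was under 0.05 for 11 members and for 4358 of the 25790 features, and the lowest adjusted p was 0.109 (limma), for Oas3. For 8 members the arrays did not overlap, all higher in row 2, as for 2.98% of all features (2.47% lower), among them Oas1a (0.45), Cmpk2 (0.61), Oasl1 (0.52), Xaf1 (0.51) and Isg15 (0.44). Without miR-185-inh mouse 7, 2 members (Cmpk2 and Oas3) and 709 of the 25790 features passed. These row comparisons share arrays with the group comparisons above and are the same values arranged another way.

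The mean of the 32 members, each centred on its own mean over the 16 arrays, was 0.12 ± 0.064 (SD, n = 4) for ctrl-inh in row 1, where miR-185-inh gave -0.15 ± 0.054 (SD, n = 4). The row 2 means were -0.099 ± 0.083 (SD, n = 4) for ctrl-inh and 0.12 ± 0.15 (SD, n = 4) for miR-185-inh. The highest mean, 0.31, was that of miR-185-inh mouse 10, in which 28 of the 32 members lay above their own mean. The lowest was -0.22, in miR-185-inh mouse 3, in which 4 did. The row 1 sets did not overlap, and in row 2 miR-185-inh mouse 12 (-0.029) lay below ctrl-inh mouse 12 (-0.0095).

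Markers of some other liver cells moved with this pattern. The 10 T and NK cell markers tested, of 12 listed, had a median difference of -0.65 in row 1, where 10 of 10 were lower. In row 2 their median was 0.48, with 7 higher and 3 lower and none called. Their summed linear level ranged from 4.34 to 6.57 in row 1 ctrl-inh, 2.88 to 3.34 in row 1 miR-185-inh, 3.54 to 4.65 in row 2 ctrl-inh and 3.83 to 10.8 in row 2 miR-185-inh livers. Gzmb, the granzyme of cytotoxic cells, fell by 1.49 in row 1 (limma adjusted p = 0.0248) and differed by only -0.014 in row 2. No feature, Gzmb included, passed in row 1 with the row 1 arrays alone or without any one of ctrl-inh mice 2, 9 or 11 or miR-185-inh mouse 6. The T and NK cell mean was highest in miR-185-inh mouse 10, at 1.18, the liver with the highest Cxcl9.

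The 11 Kupffer cell and macrophage markers tested, of 12 listed, had medians of -0.40 and 0.090, and their summed level ran from 111 to 129, 70.02 to 111, 89.4 to 121 and 73.9 to 122 in the same order of sets. The 8 sinusoidal endothelium markers, of 8 listed, had medians of -0.34 and 0.47. Their summed level ran from 46.7 to 51.8 in row 1 ctrl-inh, 32.2 to 46.6 in row 1 miR-185-inh, 29.4 to 40.3 in row 2 ctrl-inh and 37.4 to 48.7 in row 2 miR-185-inh livers, and Lyve1, Oit3 and Fcgr2b fell from row 1 to row 2 of ctrl-inh. All Kupffer and endothelial markers tested were well above background on all 16 arrays, while Cd8b1 and Trac of the T and NK list and Cd68 of the Kupffer list were not tested. The 8 hepatocyte markers went the other way, with medians of 0.079 and -0.23. All 10 neutrophil markers were lower in both rows (medians -1.24 and -0.58). The 5 B cell markers tested had medians of -0.18 and 0.15, and the 8 plasmacytoid dendritic cell markers that are not members had -0.18 and 0.078. The share of spots well above background was 68.6% to 74.8% in row 1 ctrl-inh livers against 58.7% to 67.1% in the others. The part of these cell markers and of array quality in the result was not tested.

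**Figure D3:**
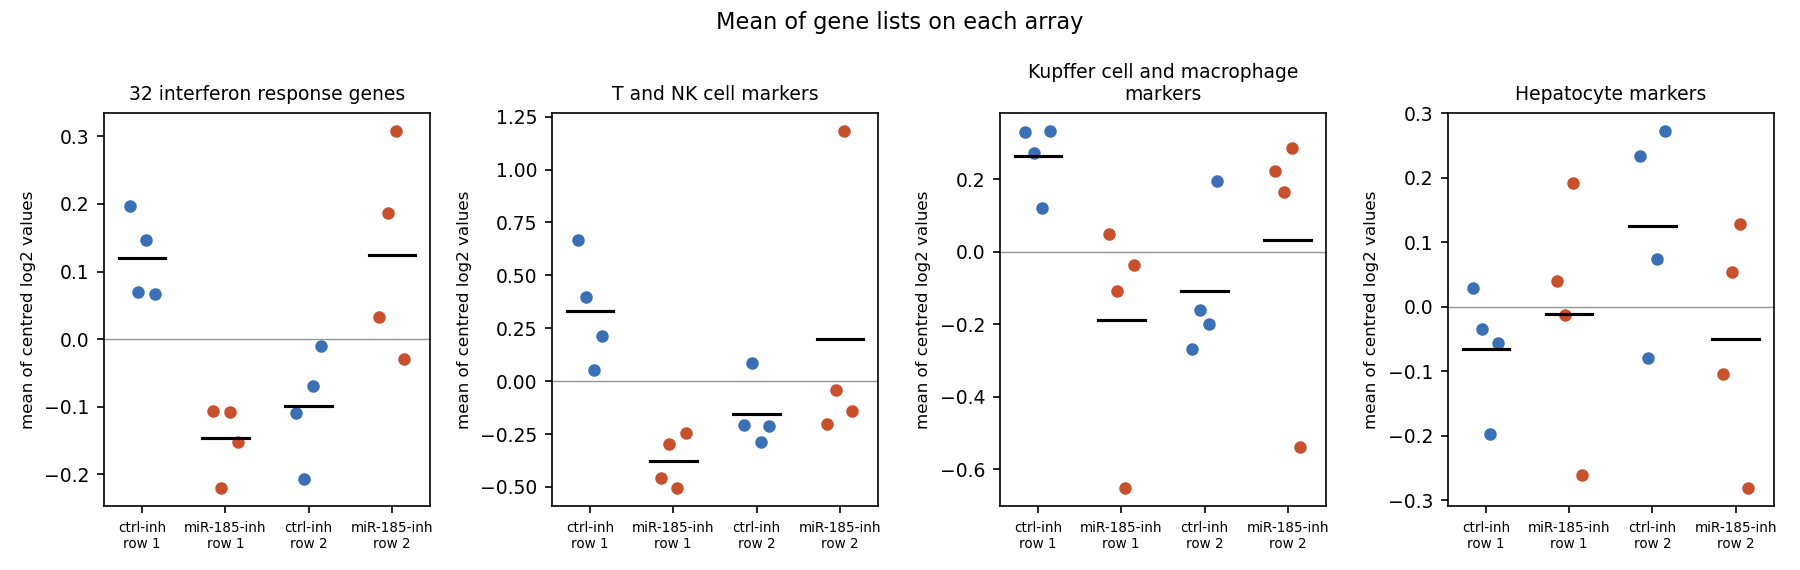
Mean of centred log2 values (vertical axis) of the 32 interferon response genes and of 3 cell type marker lists on each array, by treatment and slide row (4 arrays each), with the mean of each set as a line. Row 1 miR-185-inh livers have the lowest set mean for both the interferon genes and the T and NK cell markers, and miR-185-inh mouse 10 is the highest liver in both (0.31 and 1.18).

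Beyond group and row, the members varied together from liver to liver. After the mean of each treatment and row was subtracted, the median Pearson r over the 496 pairs of members was 0.26 (Spearman 0.26) and 368 pairs (74.2%) were positive. The median over pairs from a grid of 3000 features was 0.032. Before subtraction the median was 0.35 against 0.039. All pairs share the same 16 arrays and scaling, so these correlations are descriptions. Without miR-185-inh mouse 10 the median was 0.18.

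The tightest pairs were Psmb8 with Psmb9 (r = 0.90), Ifit3 with Gbp3 (0.90), Oasl1 with Xaf1 (0.85), Ifih1 with Isg15 (0.83) and Cxcl9 with Gbp2 (0.83). The members closest to the mean of the other members were Ifit3 (0.87) and Psmb8 (0.84). The sensors correlated with one another (median 0.68) and with the antigen processing genes (0.63). The chemokines and GTPases correlated among themselves (0.50) and less with the effectors (0.15). Oas2 ran against the others (-0.52), as did Ifit2 weakly (-0.16), while Stat2 (-0.060) and Ifi44 (-0.022) showed little relation.

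**Figure D4:**
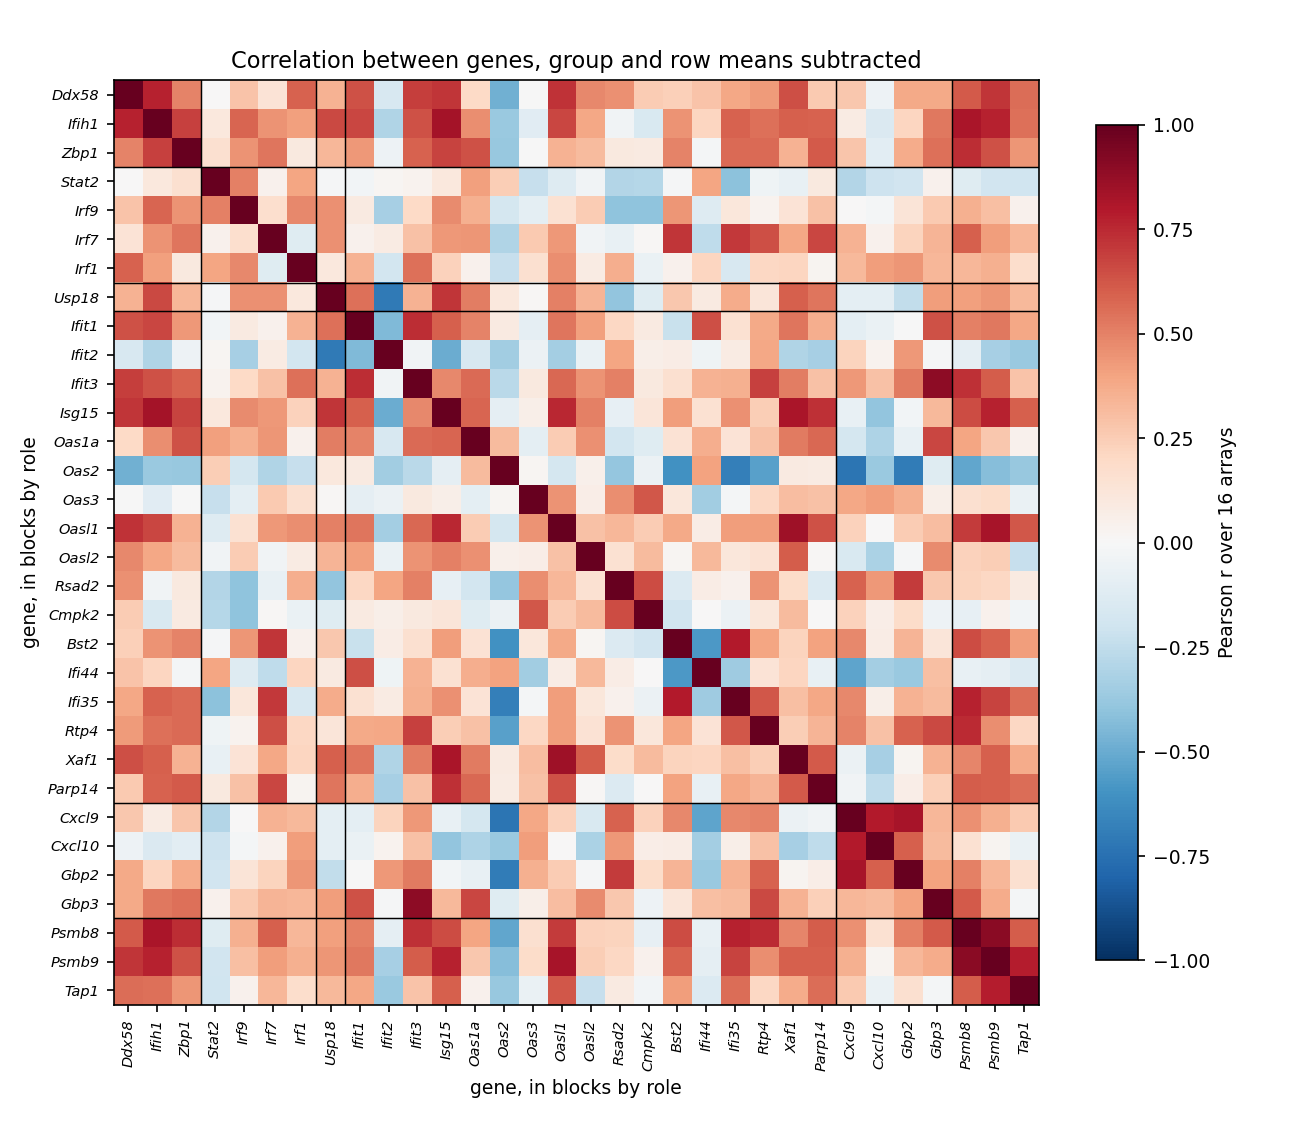
Pearson r over 16 arrays between each pair of the 32 genes after the mean of each treatment and row was subtracted, with red positive and blue negative and lines separating roles. The red corner of Psmb8 and Psmb9 (0.90) and the blue line of Oas2 (-0.52 with the mean of the others) stand out.

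Of 15215 named genes outside the members, the 10 whose values followed the members' mean most closely were Hsd17b2 (r = 0.89), Krt222 (0.89), Grn (0.87), Eftud2 (0.87), Cyp4f14 (0.87), Slc25a11 (0.86), Ccl9 (0.86), Cyp2c68 (0.86), Ebp (0.86) and Psmg1 (0.86), over 16 arrays with group and row means subtracted. None of the 10 is among the 96 other interferon pathway genes tested, and 6 of those 96 were in the top 100. An r above 0.6 was reached by 1434 of the 15215 genes.

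The other interferon pathway genes, 107 listed and 96 tested, followed the pattern less fully. Of the 96, 45 (46.9%) were lower in row 1 and higher in row 2, against 15.6% of all features. Their median differences were -0.13 and 0.049, against 0.0070 and -0.070 over all features. In the whole groups 1 of 96 passed (1.04%, against 4.71% of all features). This was Jak2, a kinase of the interferon gamma receptor, which rose by 0.46 (SE 0.12, limma adjusted p = 0.03055). In row 1 none passed (0.00775% of all features). In row 2, 8 were called higher and 1 lower, or 9.38% against 5.78% of all features (1.72% higher and 4.06% lower). Gbp5 rose by 1.15 (SE 0.19, adjusted p = 0.00902), Gbp6 by 0.59, the inflammasome protease Casp1 by 0.50, the nuclear body protein Sp100 by 0.38 and Phf11d by 0.38, while Tbk1, a kinase that activates Irf3, fell by 0.46 (adjusted p = 0.0318). Oas1g is among the 8, but it was above background on 8 of 16 arrays and on none in row 2 ctrl-inh livers, so it was tested only through the sets where it is high and no fold is given. The interaction passed for 6 of 96 (6.25%, against 0.372% of all features), all above 0, with Oas1g among them. Gbp5 was at 1.84 (SE 0.27, limma adjusted p = 0.0228), Gbp6 at 1.29 and Phf11d at 0.96 (adjusted p = 0.0153).

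The ligands and receptors gave no call. Ifng, which encodes interferon gamma, differed by -0.80 in row 1 (SE 0.28, limma adjusted p = 0.161) and 0.59 in row 2 (SE 0.28, adjusted p = 0.212), with an interaction of 1.39 (adjusted p = 0.120). Ifnb1, Ifna2 and Ifna4 did not pass the filter on dim probes. The receptor genes Ifnar1, Ifnar2 and Ifngr1 differed by between -0.17 and 0.12 in either row.

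Where a member had a second probe, 7 of 8 such probes, all but that of Ifih1, had the signs of the first in both rows. For Oas1a the second probe gave only 0.0044 in row 2, where the first gave 0.41, so it did not repeat that rise. For Cxcl9, Isg15, Zbp1 and Cmpk2 the second probe correlated with the first at 0.98, 0.93, 0.90 and 0.83. For Xaf1 (0.56) and Ddx58 (0.46) the correlation was lower with the same signs, and Oas1a (0.57) and Ifih1 are described above.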

How the data were processed

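Microarray values of 16 mouse livers were analysed. Per the file headers, the authors' scanner files hold spot intensity that Agilent Feature Extraction 11.5.1.1 had background-corrected (the submitters' processing notes name version 9.1). The authors' deposited value table holds log2 values, which equal log2 of the processed intensity minus 1 constant per array, with column medians from -1.30 to -1.22. The origin of that constant is not given. Here log2 of the processed intensity was scaled by subtracting, per array, the 75th percentile of its non-control spots. Outlier spots were dropped, spots of a probe averaged, probes required to be well above background on 8 or more of the 16 arrays, and the brightest probe used per gene. Of 55681 probes, 26762 were named through RefSeq accessions (GRCm38.p6). Groups came from the treatment label. The fits used limma 3.58.1 (R 4.3.3), with treatment alone for the whole groups, and 4 means (treatment by slide row) over all 16 arrays for the rows, all two-sided. The p-values were adjusted by Benjamini-Hochberg across the 25790 features, and 0.05 was the threshold. Exact two-sided permutation tests were added for single genes. The scripts were tested on simulated data.

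The members, pathway and marker lists and the row comparison were chosen with earlier results of these data known. Named were members past the threshold, the 5 largest differences in the whole groups and each row, and genes with set roles. Outside the members, the rule named up to 8 called pathway genes, 6 by role (1 of them is not reported here), and the 10 closest in r. Ddx58 is also called Rigi. The alternatives were other background corrections, normalizations, filters, probe rules and variance settings, fits on part of the arrays, each array left out, and a replicate block. Normexp (offset 50) was run on the median spot signal.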

Additional observations from a re-analysis of the deposited data

Results flagged for a closer look

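Among 66 groups of 8 livers looked at, 2 held a liver far from the others, and chance alone gives about 1 in 20. Rsad2, the antiviral enzyme viperin, was 2.51 in ctrl-inh mouse 1, where the next liver of its group was at 2.14. Cxcl9 was 2.75 in miR-185-inh mouse 10, where the next was at 1.71. The same liver had the highest mean of the 32 interferon response genes and of the T and NK cell markers.

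The group difference of Gbp3 differed between the slide rows by 0.80 in the limma interaction test (adjusted p = 0.0325), and with normexp the adjusted p was 0.0639. For Oas3 the measured values gave 1.27 (limma adjusted p = 0.0244), but that size is not settled. Above background were 0 of 4 row 2 ctrl-inh arrays and 2 of 4 row 1 miR-185-inh arrays. With normexp the Oas3 interaction was 0.45 (adjusted p = 0.117), and the filter on all 16 arrays removes the gene. Row follows mouse number on both slides. The causes of these differences were not tested.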

How the results depend on the processing

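The median difference of the 32 members kept its sign in row 1 (-0.31 to -0.23), in row 2 (0.17 to 0.24) and in the interaction (0.36 to 0.49) under each alternative run with all 16 livers, and when single livers were left out (-0.28 to -0.19, 0.17 to 0.25 and 0.31 to 0.46). The whole-group median ran from -0.084 to -0.013 under the alternatives and from -0.068 to 0.018 with single livers left out, where its sign turned. Counts of called members did not hold. In row 1 (0 called, and 2 of 25790 features) there were 2 with the percentile over probes detected on all arrays (452 features), 1 with the authors' deposited table (60 features), 4 without the filter on dim probes (3682 of 37147 features) and 3 with array weights (765 features). In row 2 (3 called) there were 0 without the filter (910 features) and 0 with the row 2 arrays alone. The interaction (2 called, and 96 features) had 0 with normexp (32 features), 4 with the detected percentile (415), 1 with the filter on all 16 arrays (115), 5 without the filter (2366), 4 with trended robust variances (117) and 4 with array weights (328). The ctrl-inh rows (4 called, and 836 features) had 7 with array weights (2918). With single livers left out the counts of members ran from 0 to 1 in row 1 (0 to 171 features) and 0 to 3 in row 2 (450 to 1834). They ran from 0 to 4 in the interaction (5 to 449 features), 0 to 6 between the ctrl-inh rows (129 to 981) and 0 to 2 between the miR-185-inh rows (0 to 709). The causes were not tested.

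Mouse numbers 1, 3, 8, 9 and 12 occur in both treatments, but same-numbered livers did not deviate together (r from -0.13 to 0.11, with 1 of 5 closest to its own number). With the replicate block the group comparison called 0 of the 25790 features, so 0 members says nothing about the members, and their median was -0.019. The Ifit2 group difference turned from -0.23 to 0.11 under the block, uncalled in both fits. The dimness of Oas3 limits what can be said of it.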
